A study of Rattus norvegicus with 8 samples.

Results

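The genes described here are 38 genes of the cell cycle, listed by name: 13 that act in DNA replication and S phase and 25 that act in mitosis. They were found as the non-control probes whose gene name in the array files is one of the 38, which gave 57 of 45598 probes, and all 38 genes had at least 1 probe. The mitotic genes fall into 9 kinases, cyclins and regulators of mitotic entry, 5 genes of the spindle checkpoint and anaphase, 9 spindle, kinetochore and cytokinesis genes, and 2 chromosome proteins.

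Cells that divide copy their DNA in S phase and part the copies in mitosis, and each step has its own set of genes. Genes for replication are switched on as cells pass from G1 into S phase, while those for mitosis follow in G2. Neurons leave the cell cycle for good when they form, and in a hippocampal culture the cells that can still divide are mostly glia, their progenitors and vascular or connective tissue cells.

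The samples were hippocampal neurons from Wistar rats of postnatal day 0 to 1, and were collected to learn what SIRT6, a NAD-dependent deacetylase, does in neuronal morphogenesis. The cultures were given a lentiviral shRNA vector on day 3 in vitro (multiplicity of infection 6) and kept for another 7 days, so that RNA was extracted on day 10. The 4 control samples carried a scrambled shRNA and the 4 others an shRNA against Sirt6, so both groups were infected. The shRNA sequences and the promoter that drove them are not given in the sources used here, nor is it stated whether the 4 samples of a group were separate cultures, and p-values therefore rest on a spread between samples that may be technical.

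Processed signal of Sirt6 itself was 1336 ± 13.1 in the controls and 476.6 ± 20.2 under its own shRNA (SD, n = 4 each), and its normalized level was 34.6% of the control (limma, log2 fold change -1.53 ± 0.040 (SE), adjusted p = 5.50e-06). Between 60.4% and 65.3% of the probes of an array were well above background. Of 22549 genes tested, 3522 rose and 3344 fell with the Sirt6 shRNA, and the median log2 fold change over all of them was 0.02. All 15 neuron markers examined passed the filter on dim probes, which asked for a signal well above background on 4 or more of the 8 arrays. So did 13 of 13 astrocyte, 12 of 12 oligodendrocyte lineage and 16 of 16 microglia markers, so the cultures also held RNA of glial genes.

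With the Sirt6 shRNA the mitotic genes Plk1, Cdc20, Nusap1, Tpx2, Kif23 and Top2a and the replication gene Ccne2 rose, and the replication genes Ccne1 and Tyms fell. Of the 38 genes, 36 passed the filter, and among these 7 rose, 2 fell and 27 did not pass the test (limma, adjusted p under 0.05 over all genes tested). That is 25.0% called, against a background of 30.4% over all genes (15.6% higher and 14.8% lower), so the count of calls was near the background. The median log2 fold change of the 36 was 0.24, with 26 above 0 and 10 below, where 54.4% of all genes were above 0. Among the 23 mitotic genes that passed, 6 rose and none fell (limma; 13 and 1 at an unadjusted p under 0.05), which is 26.1% called and also near the background of 30.4%. Of the 23, 20 had a log2 fold change above 0, called or not, and the median was 0.44. The 6 calls were 2 without scrambled replicate 1 (8.7% called, against 25.8% of all genes) and 3 without scrambled replicate 3 or without Sirt6 shRNA replicate 4, while without Sirt6 shRNA replicate 2 there were 8 higher and 1 lower and the median was 0.26. Among the 13 replication genes 1 rose and 2 fell, and the median was -0.01, which ran from -0.055 with median centring to 0.064 with spike-in scaling. The mitotic median was above 0 under all 6 other scalings and background corrections, from 0.19 with normexp background correction to 0.52 with spike-in scaling. The authors' log2 values, 1 of the 6, equal the main values up to 1 constant per array. Their median of 0.44 is therefore no separate check. In 13 genes all 4 Sirt6 shRNA arrays lay above all 4 scrambled arrays on the normalized scale, and in 3 they all lay below, which together is 44.4% of the 36 against 33.4% of all genes (17.4% above and 16.1% below). In RNA from whole cultures, a change in the number of cells of a type and a change in RNA per cell cannot be told apart.

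Probe and promoter sequences are shown first, since the levels are those of single 60-base probes and since the promoters of mitotic and replication genes differ in their letters. Probes are given as the array files list them, with positions in build rn4, for genes to which the results return. Ccnb2 has a pair of probes that changed in the same direction but lay on different sides of the threshold. The brighter one, which stands for the gene, is listed at chr8:74892410-74893442 and the dimmer one at chr8:74896165-74896224, both on the minus strand. The span of the brighter probe is longer than the probe because it joins sequence from separate parts of the gene, as does the probe for Cdc20, at chr5:138913267-138914237 on the minus strand. Nusap1 was read at chr3:106164775-106164834 on the plus strand and Tyms at chr9:112605733-112605792 on the minus strand.
Ccnb2 brighter probe: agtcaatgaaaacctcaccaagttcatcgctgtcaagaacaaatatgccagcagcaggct
Ccnb2 dimmer probe: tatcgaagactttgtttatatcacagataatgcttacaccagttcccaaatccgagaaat
Cdc20 probe: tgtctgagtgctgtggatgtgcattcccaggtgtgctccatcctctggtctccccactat
Nusap1 probe: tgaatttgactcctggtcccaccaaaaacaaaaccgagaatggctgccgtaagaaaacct
Tyms probe: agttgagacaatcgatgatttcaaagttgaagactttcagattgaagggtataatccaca

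Promoters were taken from RefSeq (GRCr8), from 250 bases before to 50 bases after the gene's start, and 30 of the 38 genes had an entry. Shown are the 5 mitotic genes that rose and have an entry, and Tyms, a replication gene that fell. They lie at chr3:127057045-127057344 (Nusap1, plus strand), chr1:186147408-186147707 (Plk1, plus strand), chr8:71320535-71320834 (Kif23, minus strand), chr5:137255750-137256049 (Cdc20, minus strand), chr10:84473044-84473343 (Top2a, minus strand) and chr9:120776034-120776333 (Tyms, minus strand). Capitals mark 3 kinds of motif on either strand: TTTGAA, known as the cell cycle genes homology region (CHR), CCAAT, the box bound by NF-Y, and the E2F words TTTCGCGC, TTTGGCGC and TTCCCGCC.
Nusap1: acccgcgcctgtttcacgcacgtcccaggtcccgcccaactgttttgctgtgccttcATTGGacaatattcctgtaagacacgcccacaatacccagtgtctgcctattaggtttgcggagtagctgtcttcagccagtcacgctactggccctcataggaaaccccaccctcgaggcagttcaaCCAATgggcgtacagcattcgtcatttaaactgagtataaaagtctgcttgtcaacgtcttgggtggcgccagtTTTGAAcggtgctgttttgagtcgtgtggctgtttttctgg
Plk1: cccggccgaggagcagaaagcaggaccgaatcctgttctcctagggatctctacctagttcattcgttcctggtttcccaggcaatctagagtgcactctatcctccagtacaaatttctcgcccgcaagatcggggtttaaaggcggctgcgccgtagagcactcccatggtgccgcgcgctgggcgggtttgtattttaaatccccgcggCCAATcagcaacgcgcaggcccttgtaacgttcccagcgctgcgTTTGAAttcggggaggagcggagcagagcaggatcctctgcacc
Kif23: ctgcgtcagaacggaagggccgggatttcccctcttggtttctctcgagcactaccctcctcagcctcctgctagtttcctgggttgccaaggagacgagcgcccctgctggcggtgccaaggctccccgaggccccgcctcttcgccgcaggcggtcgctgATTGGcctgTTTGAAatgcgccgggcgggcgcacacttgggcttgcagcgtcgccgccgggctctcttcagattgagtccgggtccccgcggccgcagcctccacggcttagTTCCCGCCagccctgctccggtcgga
Cdc20: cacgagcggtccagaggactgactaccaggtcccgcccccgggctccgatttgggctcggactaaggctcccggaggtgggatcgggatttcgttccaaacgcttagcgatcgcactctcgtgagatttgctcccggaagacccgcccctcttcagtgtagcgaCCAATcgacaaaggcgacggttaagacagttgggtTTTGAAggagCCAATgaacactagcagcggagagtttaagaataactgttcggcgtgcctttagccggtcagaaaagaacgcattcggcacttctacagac
Top2a: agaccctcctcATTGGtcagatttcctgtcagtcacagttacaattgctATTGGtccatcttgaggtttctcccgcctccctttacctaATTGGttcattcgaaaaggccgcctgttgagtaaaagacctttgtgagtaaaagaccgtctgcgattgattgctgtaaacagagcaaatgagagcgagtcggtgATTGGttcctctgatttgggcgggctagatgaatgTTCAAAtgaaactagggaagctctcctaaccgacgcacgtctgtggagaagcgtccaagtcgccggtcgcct
Tyms: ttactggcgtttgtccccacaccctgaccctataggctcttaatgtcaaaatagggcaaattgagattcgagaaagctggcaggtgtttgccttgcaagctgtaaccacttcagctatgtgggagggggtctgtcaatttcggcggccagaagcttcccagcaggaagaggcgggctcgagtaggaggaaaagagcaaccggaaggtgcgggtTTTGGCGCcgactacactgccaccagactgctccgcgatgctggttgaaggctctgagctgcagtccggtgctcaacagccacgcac

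All 5 of these mitotic promoters hold TTTGAA or its complement TTCAAA and at least 1 CCAAT box, and the Tyms promoter holds neither but has an E2F word. The CHR begins at base 10 from the start in Nusap1, 7 in Plk1, -79 in Kif23, -51 in Cdc20 and -22 in Top2a. Over the 20 mitotic genes with an entry, 13 (65.0%) held a CHR, against 1 of 10 replication genes (10.0%) and 18.1% of all 27457 promoters of the same length. An E2F word stood in 2 of the 20 mitotic promoters (10.0%), in 7 of the 10 replication promoters (70.0%) and in 2.83% of all. CCAAT was found in 21 of the 30 promoters (70.0%) and in 37.7% of all. With TTTAAA, a variant of the CHR, counted too, 19 of the 20 mitotic promoters (95.0%) held a match, and 27.9% of all did. A match is a run of letters and not a measured binding site, motifs on the same strand or on opposite strands may overlap, and the motif was also present in genes that did not pass the test, such as Ccnb2, Mki67 and Birc5.

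In the replication group, Ccne1 fell and Ccne2 rose. In the sentences on single genes below, processed signals, in intensity units without scaling between arrays, are given for replicates 1 to 4 of each group in turn, and fold changes are on the log2 scale after each array's 75th percentile was subtracted. Ccne1, cyclin E1, which activates CDK2 at the entry to S phase, gave signals of 685, 704, 742 and 677 with the scrambled shRNA and 622, 616, 634 and 621 with the Sirt6 shRNA. All 4 Sirt6 shRNA arrays were below the lowest control and close to each other. The difference was -0.21 ± 0.034 (SE) on the log2 scale (limma adjusted p = 0.00278). Ccne2, the other E-type cyclin, gave 92.5, 91.8, 90.9 and 90.6 with the scrambled shRNA and 117, 128, 110.2 and 113 with the Sirt6 shRNA. Its control values were almost level and the groups did not overlap. The log2 fold change of Ccne2 was 0.31 ± 0.062 (SE) (limma adjusted p = 0.00700), so the paired cyclins, which have overlapping roles, moved in opposite directions. Tyms, thymidylate synthase, which makes thymidine monophosphate, gave 85.0, 80.8, 79.0 and 85.1 with the scrambled shRNA and 76.1, 72.5, 78.5 and 75.4 with the Sirt6 shRNA. The gap between the groups was small, at 79.0 in the lowest control against 78.5 in the highest Sirt6 shRNA array. Tyms fell by 0.17 ± 0.049 (SE) on the log2 scale (limma adjusted p = 0.0360), a call that was lost in 7 of the 8 fits that left out 1 array, with adjusted p up to 0.0891.

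The remaining 10 replication genes did not pass the test. Rrm2, the small subunit of ribonucleotide reductase, gave 534, 686, 675 and 659.7 with the scrambled shRNA and 741, 1302, 781 and 833 with the Sirt6 shRNA. The Sirt6 shRNA array of replicate 2 stood far above the rest, and the groups did not overlap. With a log2 fold change of 0.45 ± 0.18 (SE), it had an adjusted p of 0.104 (limma). Its large subunit partner Rrm1 had a log2 fold change of -0.09 and did not overlap in the other direction, so the sign differed between the subunits of the enzyme. Mcm2 to Mcm7, the subunits of the replicative helicase, ranged from -0.10 (Mcm6) to 0.18 (Mcm5). On the probes that stood for the genes, Mcm7 was the only helicase gene of the 6 without overlap, at 0.08 ± 0.033 (SE) (limma adjusted p = 0.0917). Another Mcm4 probe also had no overlap, at 0.06 ± 0.036 (SE) (limma adjusted p = 0.231, over all kept probes). Pcna, the sliding clamp of the DNA polymerases, was at -0.01 and Tk1, thymidine kinase, at -0.20. Without replicate 2 of the Sirt6 shRNA, Tk1 was at -0.32 (limma adjusted p = 0.00621).

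**Figure D1:**
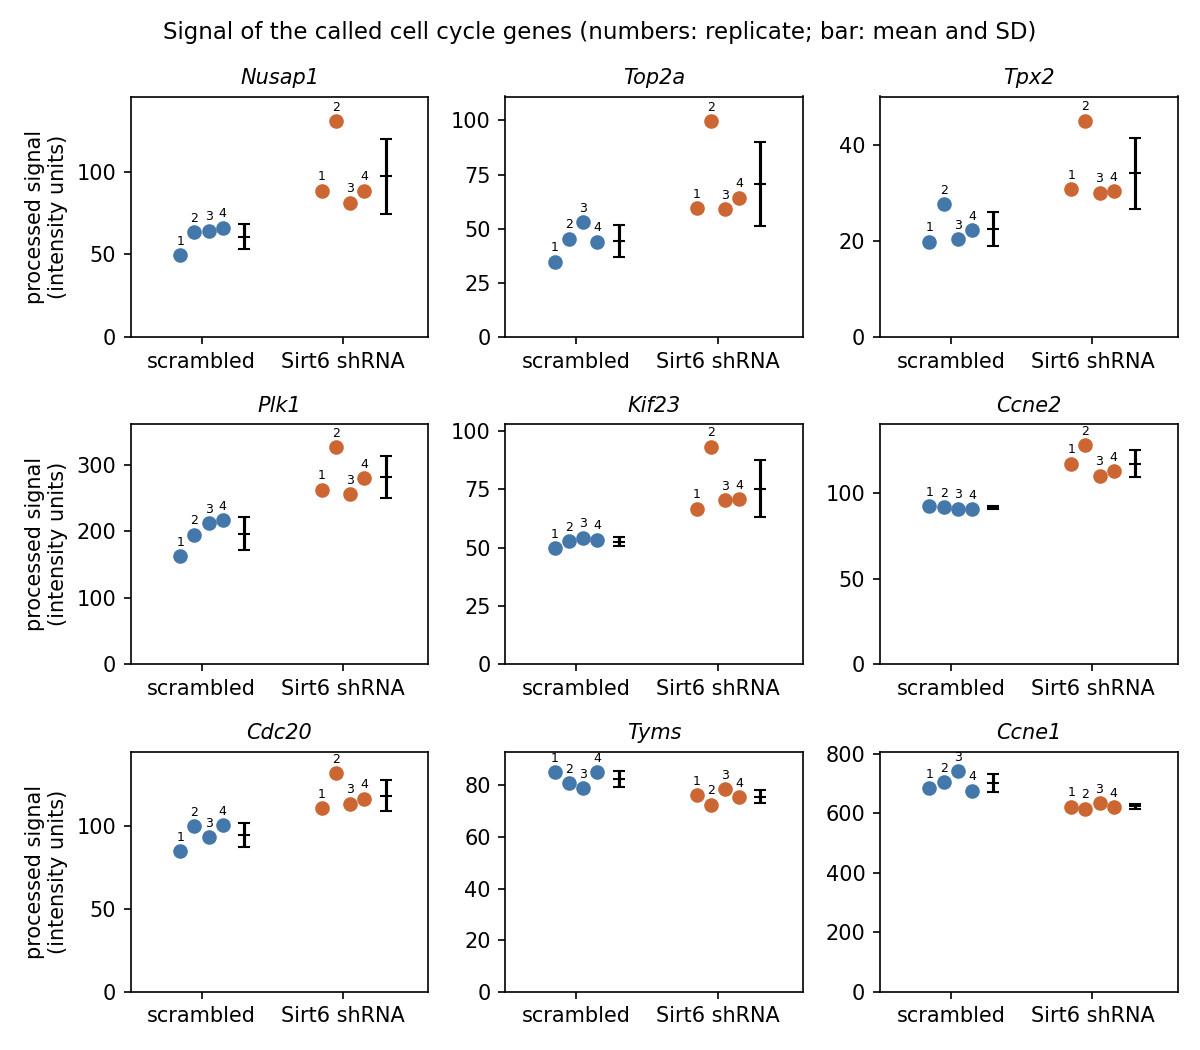
Processed signal in intensity units for the 9 genes that passed the test, with 1 point per array numbered by replicate, and bars for the mean and SD of 4 arrays; each axis starts at 0. The groups do not overlap in any of the 9 panels, and replicate 2 is the highest Sirt6 shRNA array in all 7 genes that rose.

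Among the 9 genes of mitotic entry, Plk1 alone passed the test (11.1% called, against 30.4% of all genes). Plk1, a kinase that drives mitotic entry and spindle assembly, gave signals of 162, 195, 212 and 217 with the scrambled shRNA and 262, 326, 256 and 279.9 with the Sirt6 shRNA. Every Sirt6 shRNA array was above the highest control. The log2 fold change was 0.48 ± 0.11 (SE), or 1.39-fold, with a limma adjusted p of 0.0138, and it kept its call whichever array was left out.

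Ccnb1, cyclin B1, the partner of CDK1 at mitotic entry, gave 23.9, 36.4, 30.7 and 33.2 with the scrambled shRNA and 36.1, 76.6, 48.2 and 44.9 with the Sirt6 shRNA. Replicate 1 of the Sirt6 shRNA lay within the controls and replicate 2 was far above all others. Ccnb1 had a log2 fold change of 0.65 ± 0.23 (SE), with an adjusted p of 0.0682 (limma). Ccnb2, cyclin B2, gave 85.4, 103, 107 and 100.1 with the scrambled shRNA and 115, 195, 132 and 136 with the Sirt6 shRNA on its brighter probe. There the groups did not overlap. The log2 fold change was 0.48 ± 0.16 (SE) with an adjusted p of 0.0515 (limma). The dimmer probe, also without overlap, had 0.66 ± 0.14 (SE) with 0.0110 (limma, adjusted over all kept probes). Both probes changed in the same direction, and only the side of the threshold depended on the probe. Melk, a kinase found in dividing cells, gave 12.3, 16.1, 19.2 and 16.9 with the scrambled shRNA and 19.1, 39.9, 17.7 and 28.2 with the Sirt6 shRNA. Replicates 2 and 4 of the Sirt6 shRNA were above every control and replicates 1 and 3 were not. Melk had a log2 fold change of 0.60 ± 0.27 (SE) with an adjusted p of 0.133 (limma). Over the processing alternatives this was as low as 0.14.

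Aurkb, the kinase of the chromosomal passenger complex, was the 1 gene of the 9 with a log2 fold change below 0. Its signals were 75.8, 83.7, 89.1 and 88.4 with the scrambled shRNA and 58.1, 91.6, 52.4 and 47.3 with the Sirt6 shRNA. Sirt6 shRNA replicates 1, 3 and 4 were all below the lowest control, and replicate 2 was the highest of the 8 arrays. The log2 fold change was -0.52 ± 0.19 (SE) (limma adjusted p = 0.0757), and it was -0.73 (adjusted p = 0.000862) without replicate 2. Cdk1, the mitotic kinase itself, Aurka, which acts at centrosomes, Foxm1, a transcription factor of G2 genes, and Ccna2, cyclin A2 of S phase and G2, had log2 fold changes of 0.21, 0.19, 0.13 and 0.10. None of the 4 passed the test, and their groups overlapped.

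In the checkpoint and anaphase group of 5 genes, Cdc20 rose (20% called, against 30.4% of all genes). Cdc20, an activator of the anaphase-promoting complex, gave signals of 84.7, 99.7, 93.0 and 100.3 with the scrambled shRNA and 111, 132, 113 and 116 with the Sirt6 shRNA. The groups did not overlap. Cdc20 rose by 0.28 ± 0.079 (SE) on the log2 scale, or 1.21-fold, with a limma adjusted p of 0.0300. Cdc20 no longer passed when scrambled replicate 1 (adjusted p = 0.0717), scrambled replicate 3 (0.0707) or Sirt6 shRNA replicate 4 (0.0657) was left out.

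Ube2c, the ubiquitin-conjugating enzyme that works with that complex, gave 49.0, 62.1, 64.1 and 66.6 with the scrambled shRNA and 67.3, 119, 74.9 and 82.1 with the Sirt6 shRNA. Normalized levels of this probe overlapped at the edge of the groups, with replicate 2 of the Sirt6 shRNA far above. With a log2 fold change of 0.44 ± 0.18 (SE), Ube2c had an adjusted p of 0.107 (limma). The other Ube2c probe, without overlap, had 0.39 ± 0.14 (SE) with 0.0681 (limma, adjusted over all kept probes). Bub1b, a checkpoint kinase relative, gave 6.23, 11.4, 9.36 and 8.89 with the scrambled shRNA and 9.70, 17.4, 12.5 and 16.6 with the Sirt6 shRNA, and was well above background on 3 arrays of each group. Bub1b had a log2 fold change of 0.60 ± 0.24 (SE) with an adjusted p of 0.0900 (limma). Over the processing alternatives this was as low as 0.045. The other Bub1b probe, not well above background on any array, was at -0.14. Birc5, or survivin, and Bub1, a checkpoint kinase, had log2 fold changes of -0.01 and -0.02, with overlapping groups.

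Spindle and cytokinesis genes had the highest median log2 fold change of the 4 groups with 5 or more genes, at 0.55. Of the 7 that passed the filter 3 rose, which is 42.9% called against 30.4% of all genes. Without scrambled replicate 1 only 1 of the 7 rose (14.3%, against 25.8% of all genes). Nusap1, a protein that binds and bundles spindle microtubules, gave signals of 49.4, 63.2, 64.3 and 65.9 with the scrambled shRNA and 88.4, 131, 81.2 and 88.4 with the Sirt6 shRNA. Even the lowest Sirt6 shRNA array was above the highest control. The log2 fold change was 0.62 ± 0.16 (SE), or 1.54-fold (limma adjusted p = 0.0231), and the adjusted p was 0.0568 without scrambled replicate 1. Tpx2, which starts microtubules and activates Aurora A, gave 19.8, 27.6, 20.3 and 22.2 with the scrambled shRNA and 30.8, 45.0, 30.0 and 30.4 with the Sirt6 shRNA. Replicate 2 was the highest in both groups. Tpx2 rose by 0.55 ± 0.16 (SE) on the log2 scale (limma adjusted p = 0.0380), a call lost in 5 of the 8 fits without 1 array, with adjusted p up to 0.0888. Kif23, the kinesin of the centralspindlin complex in cytokinesis, gave 49.9, 52.8, 54.3 and 53.4 with the scrambled shRNA and 66.8, 93.2, 70.3 and 70.9 with the Sirt6 shRNA. The controls were close together and all 4 Sirt6 shRNA arrays were above them. Kif23 rose by 0.46 ± 0.11 (SE) on the log2 scale, or 1.38-fold (limma adjusted p = 0.0129), and its call was kept whichever array was left out.

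Kif11, the kinesin that pushes the spindle poles apart, gave 38.8, 44.5, 50.5 and 42.1 with the scrambled shRNA and 61.3, 117, 61.1 and 55.1 with the Sirt6 shRNA. There was no overlap, and replicate 2 of the Sirt6 shRNA was far above the other 3. With that array the log2 fold change was 0.64 ± 0.23 (SE) (limma adjusted p = 0.0701), and without it 0.39 (0.00979). Kif20a, a kinesin of cytokinesis, gave 62.3, 74.0, 83.9 and 81.4 with the scrambled shRNA and 86.4, 136, 95.6 and 87.4 with the Sirt6 shRNA. Here too the groups did not overlap and replicate 2 stood apart. Its log2 fold change was 0.37 ± 0.16 (SE) with an adjusted p of 0.114 (limma). Cenpf, a kinetochore protein, gave 3.60, 4.54, 8.76 and 10.3 with the scrambled shRNA and 9.32, 21.4, 7.50 and 11.7 with the Sirt6 shRNA, and only 2 arrays of each group were well above background. Its log2 fold change was 0.85 ± 0.43 (SE) with an adjusted p of 0.170 (limma) and overlapping groups, and it was 0.054 with normexp background correction and 0.27 with 16 added before log2, so its size depended on how signals near background were treated.

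Prc1, which bundles microtubules in the midzone, was at 0.26 ± 0.13 (SE) (limma adjusted p = 0.153). Kif2c, a kinesin that takes microtubules apart, and Kif4a, a kinesin on chromosomes, did not pass the filter, since each was well above background on 1 scrambled and 2 Sirt6 shRNA arrays. Their mean signals were 5.10 and 7.20 for Kif2c, and 5.44 and 8.98 for Kif4a, scrambled first.

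Both chromosome proteins were without overlap, as were 33.4% of all genes, and 1 of them rose, where 30.4% of all genes were called. Without scrambled replicate 1 neither was called, against 25.8% of all genes. Top2a, the topoisomerase that untangles sister chromosomes, gave signals of 34.7, 45.4, 52.9 and 44.0 with the scrambled shRNA and 59.5, 99.6, 58.9 and 64.2 with the Sirt6 shRNA. All Sirt6 shRNA arrays were above the controls, and replicate 2 was far above the other 3. Its log2 fold change was 0.61 ± 0.19 (SE), or 1.53-fold (limma adjusted p = 0.0441), and it did not pass in 6 of the 8 fits without 1 array, with adjusted p up to 0.103. Mki67, the proliferation marker that coats mitotic chromosomes, gave 96.0, 112, 127 and 124 with the scrambled shRNA and 144, 202, 137 and 133 with the Sirt6 shRNA. The highest control and the lowest Sirt6 shRNA array were close but did not cross. The log2 fold change was 0.37 ± 0.15 (SE) with an adjusted p of 0.0924 (limma). Its 3 other probes gave 0.40, 0.31 and 0.022 on the log2 scale.

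**Figure D2:**
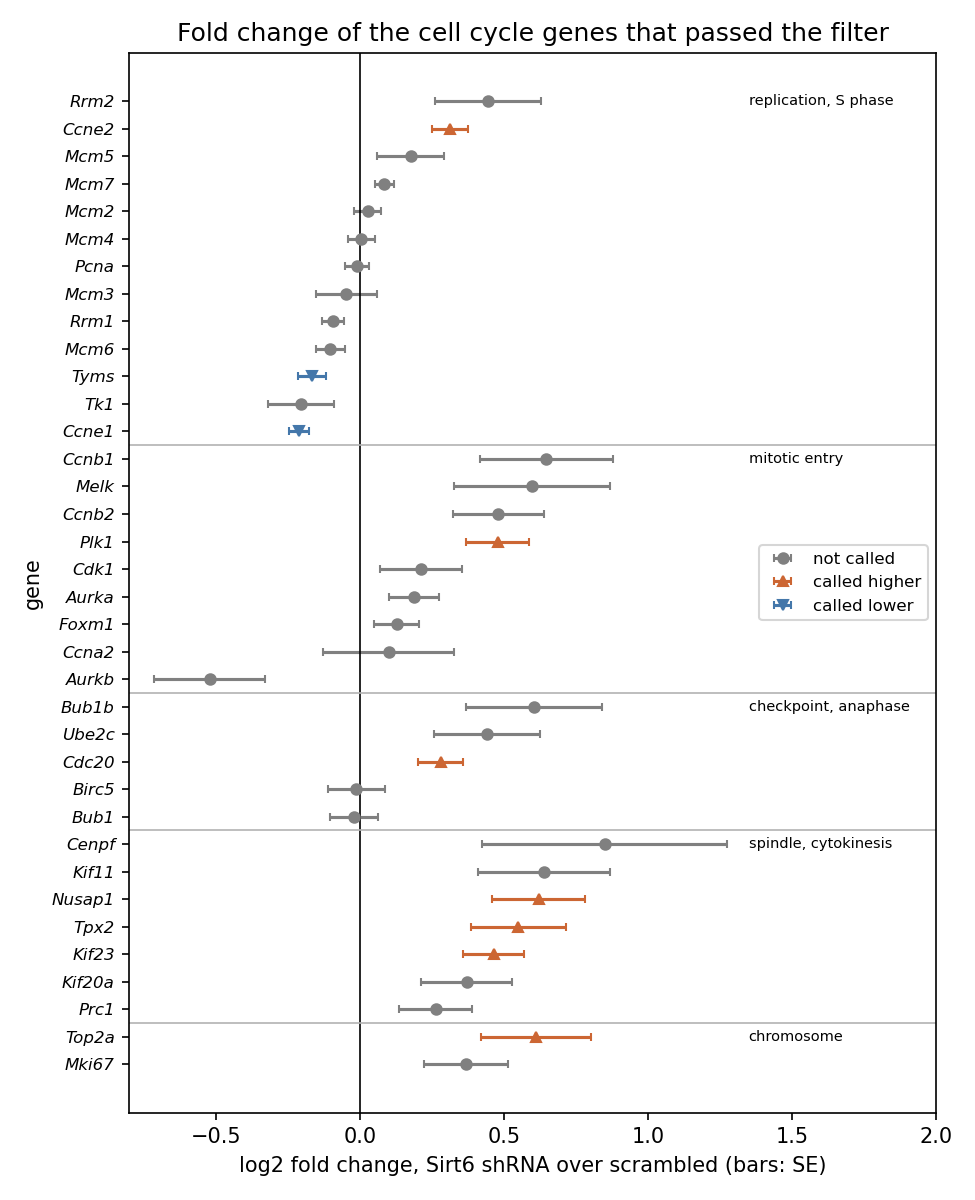
Log2 fold change of Sirt6 shRNA over scrambled shRNA for the 36 genes that passed the filter, ordered by role, with bars for the SE of the limma fit from 4 arrays per group; triangles mark genes with an adjusted p under 0.05. The mitotic genes lie mostly right of 0, with Aurkb far to the left, while 12 of the 13 replication genes lie between -0.21 and 0.31.

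The arrays did not contribute evenly. Replicate 2 of the Sirt6 shRNA was the highest of all 8 arrays for 29 of the 36 genes (80.6%), where it was the highest for 12.7% of all genes tested. Within its own group it was the highest for 31 of 36 (86.1%, against 27.3% of all genes), and for 22 of the 23 mitotic genes. Scrambled replicate 1 was the lowest of its group for 28 of 36 (77.8%, against 23.3% of all genes).

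The mean deviation of the 23 mitotic genes from their 8-array means shows the same arrays. It was -0.38, -0.13, -0.13 and -0.09 in the 4 scrambled arrays and -0.01, 0.63, -0.03 and 0.13 in the 4 Sirt6 shRNA arrays. The groups did not overlap, and Sirt6 shRNA replicates 1 and 3 were just above the highest control. Their difference of 0.36 was 0.21 without replicate 2 of the Sirt6 shRNA and 0.30 without scrambled replicate 1. For the 13 replication genes the difference was 0.02, and -0.03 without that Sirt6 shRNA array. Across the 36 genes the median SD was 0.11 among scrambled and 0.24 among Sirt6 shRNA arrays, and 0.067 among the latter without replicate 2. The SD was larger with the Sirt6 shRNA in 31 of 36 genes (86.1%), and in 50.7% of all genes.

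Leaving out replicate 2 of the Sirt6 shRNA lowered the median log2 fold change of the 36 genes to 0.12 and raised the count of calls to 9 higher and 3 lower (33.3%, against 29.2% of all genes). Ccnb2 and Kif11 were then called higher and Aurkb and Tk1 lower, and Tyms was no longer called. Leaving out scrambled replicate 1 left 3 higher and 1 lower (11.1%, against 25.8%). Ccne1, Ccne2, Kif23 and Plk1 kept their call in each of the 8 fits without 1 array. With the arrays scaled on spike-in probes Ccne1 was not called (-0.14, limma adjusted p = 0.297), nor were Tyms and Cdc20, and Cdc20 was not called with median centring either (adjusted p = 0.0525). Tpx2 was not called with normexp background correction (0.15, adjusted p = 0.0933) or with array weights (0.0598). Aurkb was called lower with normexp (-0.28, adjusted p = 0.0310), median centring (0.0428) and array weights (0.0384).

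**Figure D3:**
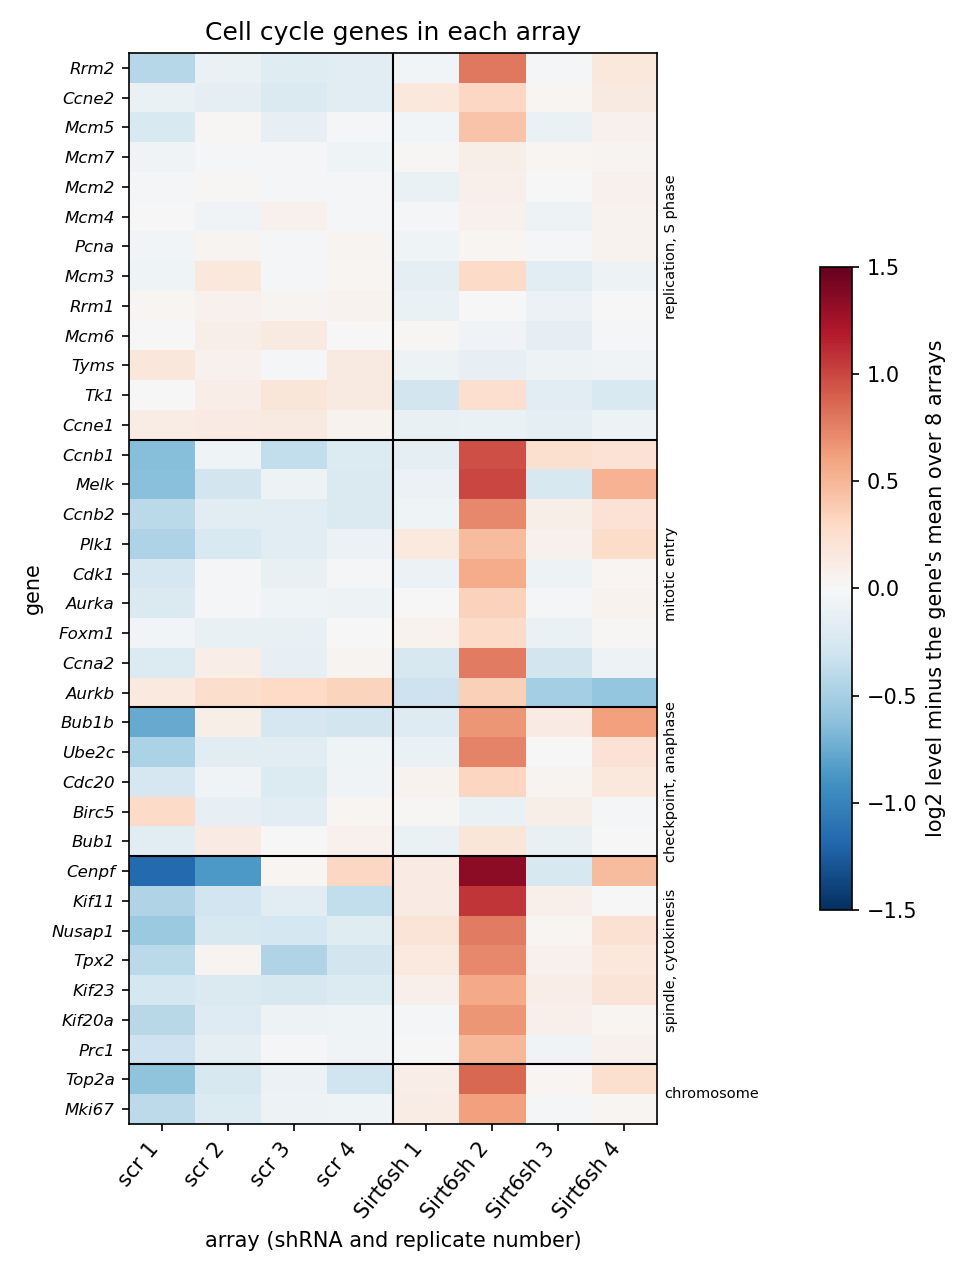
Log2 level of each of the 36 genes in each of the 8 arrays, minus that gene's mean over the 8 arrays, with red for higher and blue for lower; genes are grouped by role and the groups of arrays are parted by a line. Replicate 2 of the Sirt6 shRNA (Sirt6sh 2) is the reddest column and scrambled replicate 1 (scr 1) the bluest, with means of 0.63 and -0.38 over the mitotic genes and 0.16 and -0.05 over the replication genes.

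Other genes of the same processes were taken from lists of well-known members. Of 53 other mitosis genes that passed the filter, of 60 listed, 22 rose and 2 fell (45.3% called, background 30.4%), 49 were above 0, and the median log2 fold change was 0.30. The largest rises were those of Cdkn3 (0.76), a phosphatase that acts on CDKs, Depdc1 (0.73) and Espl1 (0.72), the separase that parts sister chromatids. Incenp, the scaffold of the passenger complex that holds Aurkb, fell by 0.47 and Kif18a, a kinesin that dampens chromosome movements, by 0.23. Without Sirt6 shRNA replicate 2 the counts were 18 and 3 (39.6%, against 29.2% of all genes), and without scrambled replicate 1 they were 16 and 1 (32.1%, against 25.8%).

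Of 29 other replication genes that passed, of 34 listed, 10 rose and none fell (12 and 1 at an unadjusted p under 0.05 by limma). That is 34.5% called, near the background of 30.4% over all genes (15.6% higher and 14.8% lower). Of the 29, 24 were above 0, with a median of 0.14. With median centring 6 rose and 1 fell and 19 were above 0. Cdc45 (0.41), part of the helicase, Cdc7 (0.31), the kinase that fires origins, and Gins3 (0.29), also of the helicase, rose most. Of 22 G1 cyclin, E2F and pocket protein genes, 5 rose and 2 fell (31.8%). The 5 were 2 or 3 whichever array was left out, with 2 without scrambled replicate 1, scrambled replicate 3 or Sirt6 shRNA replicate 4, and 2 with median centring. Rbl2, the pocket protein p130 found in resting cells, fell by 0.77, while E2f7 (0.63), a repressor, and E2f2 (0.61), an activator, rose. Among 13 CDK inhibitors and brakes 2 rose and 3 fell (38.5%), and leaving out 1 array left 0 or 1 that rose. Pkmyt1, which holds CDK1 inactive, rose by 0.39, and Gadd45a and Btg1, both linked to growth arrest, fell by 0.36 and 0.30.

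Markers of cell types that can divide, and of neurons, were measured on the same arrays. The background for the counts below is the 30.4% of all genes that were called. The share called was 85.7% for mural, 76.9% for astrocyte, 63.6% for fibroblast and 53.3% for neuron markers. It was near or below the background for oligodendrocyte lineage (33.3%), neural progenitor (25%), microglia (25%) and endothelial markers. Summed levels below are in multiples of each array's 75th percentile signal. Mural and smooth muscle markers summed to 9.29 to 10.3 with the scrambled shRNA and 21.6 to 25.4 with the Sirt6 shRNA. Of the 7 that passed, of 11 listed, 6 rose and none fell (limma, and likewise at an unadjusted p under 0.05), led by Tagln (2.14) and Myl9 (1.64), both of smooth muscle, while Rgs5, Kcnj8 and Des were not detected on any array. Astrocyte markers summed to 381 to 417 and 272 to 298, with 1 of 13 higher and 9 lower. Gjb6, a gap junction gene, rose by 1.15 and S100b, a calcium-binding protein, fell by 1.42.

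Neural progenitor markers summed to 212 to 235 and 195 to 217, and of the 12 that passed, of 17 listed, 2 rose and 1 fell. The mean log2 deviation of the 12 went the other way, from -0.079 to -0.035 in the scrambled arrays and 0.030 to 0.15 in the Sirt6 shRNA arrays. The direction for this list thus depended on the summary used. Nes (0.63) and Hopx (0.45) rose, and Hes5 and Eomes were not detected on any array. Fibroblast and meningeal markers summed to 49.1 to 52.6 and 49.9 to 52.9, with 5 of 11 higher and 2 lower. Of the 11, 9 were above 0 and the median log2 fold change was 0.20. The largest changes went against most of the list, since Fmod and Mgp fell by 1.97 and 1.72. Microglia and macrophage markers summed to 56.4 to 74.4 and 42.0 to 71.6, with none of 16 higher and 4 lower (0 and 8 at an unadjusted p under 0.05 by limma), led by Tmem119 (-0.89) and P2ry12 (-0.68). Without Sirt6 shRNA replicate 2, 13 of the 16 microglia markers were called lower (81.2%, against 29.2% of all genes) with a median log2 fold change of -0.62, and without any other single array 1 to 3 were, with 1 without Sirt6 shRNA replicate 3. Oligodendrocyte lineage markers summed to 48.6 to 53.8 and 43.4 to 45.3, with 1 of 12 higher and 3 lower, and Mbp, of myelin, fell by 1.31. Of 5 endothelial markers that passed, of 10 listed, Kdr rose by 0.41, the list summed to 4.27 to 4.84 and 4.30 to 5.07, and Tie1, Emcn and Esam were not detected. The 15 neuron markers summed to 213 to 215 and 203 to 226, with 5 higher and 3 lower, of which Gad1 fell by 0.41 and Nefm rose by 0.35.

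Some of these lists moved with the arrays that stood apart in the mitotic genes. The Sirt6 shRNA array of replicate 2 had a mean deviation of 0.15 in the progenitor markers, against 0.030 to 0.038 in the other 3 of its group. In the microglia markers it was at 0.35, against -0.51 to -0.29. Scrambled replicates 2 and 4 were at 0.44 and 0.31 in the microglia markers and did not stand apart in the mitotic genes. In the mural markers that array was at 0.48, within the 0.43 to 0.56 of the other 3 of its group, and in the neuron markers it was the lowest of the 8, at -0.064. Scrambled replicate 1 was the highest of the 8 arrays in the astrocyte (0.22), oligodendrocyte lineage (0.15) and fibroblast (0.13) markers, and the lowest in the mural markers, at -0.598 beside -0.593 in scrambled replicate 4. The part of these cell types in the changes of the cell cycle genes was not tested.

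**Figure D4:**
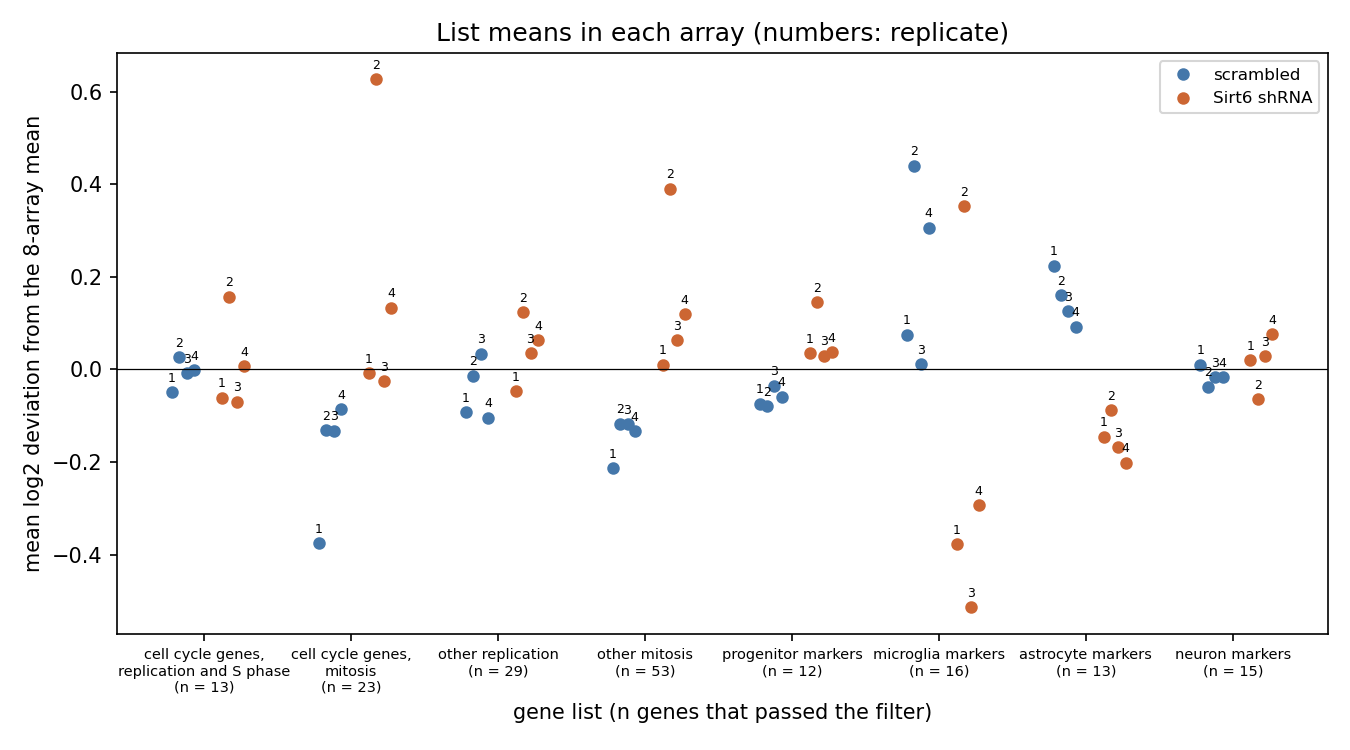
Mean log2 deviation from the 8-array mean for 8 gene lists, with 1 point per array numbered by replicate, blue for scrambled and orange for Sirt6 shRNA. Replicate 2 of the Sirt6 shRNA is the highest array for both sets of cell cycle genes, the other mitosis and replication genes and the progenitor markers, is at 0.35 in the microglia markers and is the lowest for the neuron markers.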

How the data were processed

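Expression was measured on 8 one-colour Agilent arrays. The intensity of each spot, per the file headers, had its background subtracted and was not scaled between arrays; the submitters' processing notes name Agilent Feature Extraction 11.5.1.1. A deposited table of the authors' log2 values equals these up to 1 constant per array and served as an alternative.

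Control and outlier spots were left out. Log2 values were averaged over the spots of a probe, and the 75th percentile of non-control probes was subtracted within each array. Probes well above background on at least 4 of 8 arrays were kept, and the brightest stood for a gene. Groups came from the labels. The test was limma 3.58.1 (R 4.3.3; eBayes after lmFit), two-sided, with Benjamini-Hochberg adjustment over 22549 genes. The number of arrays limits the precision. The same fit was tested on simulated data. Genes were named through RefSeq (GRCr8) or kept the file's name.

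Values are given for each called gene and for the uncalled ones of largest change up to 20 genes in all, and for up to 3 called genes per pathway list and 2 per marker list. The members, lists and this rule were chosen with earlier results of these data known. All arrays lay on 1 slide with 1 scan, scrambled in row 1 and Sirt6 shRNA in row 2, so row and group cannot be told apart. Same-numbered arrays were not treated as pairs, since the labels do not say whether they belong together. They also shared a column of the slide. Correlations of their deviations from the group means were 0.065, 0.16, 0.13 and 0.034. Between arrays of unlike number these ran from -0.22 to 0.12, and a pairing cannot be settled from such values. Alternatives covered background correction, scaling, filter, probe choice, eBayes options, array weights, a replicate block and leaving out each array.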

Additional observations from a re-analysis of the deposited data

Results flagged for a closer look

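In groups of 4 arrays, a highest or lowest array was picked out where its gap to the next, divided by the range of the group, was above 0.829. Over 72 gene and group pairs and 36 list and group pairs this picked out 7. Chance alone picks about 1 in 20 such groups, so the count was near what chance gives. The pairs are also not independent, since they share arrays and some lists share genes. Sirt6 shRNA replicate 2 was picked out in Kif11 (ratio 0.889, level -1.48 against -2.55 to -2.43), Tpx2 (0.851, -2.86 against -3.51 to -3.41) and Kif20a (0.851, -1.26 against -1.94 to -1.84), and in the mean deviation of the neural progenitor markers (0.932, 0.145 against 0.0297 to 0.0376). Scrambled replicate 1 was picked out in the mean deviation of the 36 cell cycle genes (0.839, -0.258 against -0.088 to -0.0555) and of the other mitosis genes (0.831, -0.214 against -0.134 to -0.117). In Mcm2 it was scrambled replicate 2, with a ratio of 0.904, at 1.44 against 1.39 to 1.40. Levels are log2 values relative to the array's 75th percentile.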

How the results depend on the processing

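Counts of cell cycle genes called (7 higher, 2 lower) stayed within 1.5 times under normexp, quantile normalization, the authors' log2 values, adding 16 before log2, the filter on all 8 arrays and the mean of probes. Spike-in scaling called 0 lower (limma; 1 at an unadjusted p under 0.05), and 2092 of all genes higher and 1174 lower. Median centring called 1999 of all genes higher. Higher genes made up 51.3% of all calls, 35.2% after median centring and 64.1% after spike-in scaling. With no filter 3 cell cycle genes were higher and 1 lower, and 14.6% of all genes were called, against 30.4% in the main fit. With the trend and robust options 1 cell cycle gene was lower (33.5% of all genes called), and with array weights 4 were (33.8%). The replicate block, used although the labels do not say that the numbers pair the samples, gave 9 higher and 1 lower (28.5% of all genes called). Leaving out 1 array gave 3 to 9 higher and 1 to 3 lower, 2628 to 3285 and 2677 to 3308 over all genes, and a median of 0.12 to 0.29. Replicate 2 of the Sirt6 shRNA was the highest of its group for 22 to 31 of the 36 genes under 6 other scalings, chosen after seeing the data, with 22 under spike-in scaling. The share of mitotic promoters with a CHR was 65.0% in the 150 bases nearest the start too, and 95.0% with TTTAAA counted. Among single genes, 649 comparisons kept direction and side of the threshold, 37 lost a call, 27 gained one and 25 changed sign. The sign changes were all in genes that did not pass the test. They were Mcm4 (-0.0015 with normexp, -0.040 with median centring), Pcna (0.020 with normexp, 0.0094 with quantile normalization, 0.064 with spike-in scaling), Mcm2 (-0.018 with median centring, -0.0019 with array weights), Mcm3 (0.028), Bub1 (0.055) and Birc5 (0.062) with spike-in scaling, and Birc5 (0.025) and Ccna2 (-0.011) with array weights. Without 1 array in turn, values ran from -0.071 to 0.081 in Birc5, -0.083 to 0.018 in Bub1, -0.014 to 0.032 in Mcm4, -0.028 to 0.0099 in Pcna and -0.14 to 0.21 in Ccna2. The cause of these changes was not tested. Slide and scan could not be used as a block, since there was 1 of each. Kif2c, Kif4a, Cenpf and Bub1b were near background, which limits what their signals show.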
